A study of Caenorhabditis elegans with 12 samples.

Results

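The 8 genes followed here, *daf-2*, *age-1*, *daf-18*, *pdk-1*, *akt-1*, *akt-2*, *sgk-1* and *daf-16*, encode the core of the insulin/IGF signaling pathway of *Caenorhabditis elegans*. They were taken by name from the 45461 genes counted in the deposited RNA-seq data, and all 8 were found. The question was how their transcripts behaved in the gonad of *set-2* mutants over the generations that lead to sterility. SET-2 is the SET1-type methyltransferase that places H3K4 methylation at promoters.

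All animals were hermaphrodites of a strain carrying *set-2*(*bn129*), grown on OP50 bacteria and kept at 25°C, and gonads were dissected on day 1 of adulthood. The strain had been maintained at a lower temperature and was moved to 25°C 1 generation before the experiments. P0 animals were heterozygous *set-2*(*bn129*)/*qC1*(*qIs26*), so the control group also carried 1 mutant copy of *set-2* and a balancer of chromosome III. Homozygous *set-2*(*bn129*) descendants made up the F2 fertile group and, split by fertility, the F4 fertile and F4 sterile groups. Against P0, genotype, generation and time at 25°C therefore changed together and cannot be told apart. F4 animals were called sterile when no embryos were seen in the uterus. Every one of the 4 groups held 3 samples of pooled gonad arms cut at the bend, 1 from each of 3 lineages, and the replicate number of a sample was read as its lineage (1, 2 or 3). Such pools hold the distal germline together with somatic cells of the gonad. In these bulk samples fewer cells of a type and less RNA per cell cannot be told apart.

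Insulin-like peptides bind DAF-2, the insulin/IGF receptor tyrosine kinase. The active receptor recruits AGE-1, the catalytic subunit of phosphoinositide 3-kinase, whose lipid product brings PDK-1 and the AKT kinases to the membrane, while the phosphatase DAF-18 removes that lipid. AKT-1 and AKT-2 phosphorylate the FOXO transcription factor DAF-16 and keep it out of the nucleus, and SGK-1 is a related kinase in the same branch. In the hermaphrodite gonad the pathway is known for promoting larval germ cell proliferation and oocyte growth and meiotic progression, and DAF-18 for holding germ cells quiescent when food is lacking.

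Between 3456068 and 10335794 reads per sample were counted on genes. Levels are given as CPM, the counts of a gene per 1000000 counts of the TMM-scaled library, and 3 counts in a library, taken as the floor, corresponded to 0.283 to 0.895 CPM. Differences were tested with edgeR's quasi-likelihood test over 8746 genes that passed its filter on low counts, and a gene was called when its Benjamini-Hochberg adjusted p was under 0.05. The *set-2* transcript lay at 192.2 ± 5.71 CPM in P0 and at 146.7 ± 8.97, 125.3 ± 3.93 and 133.0 ± 1.65 CPM in F2 fertile, F4 fertile and F4 sterile gonads (SD, n = 3). The summed level of 10 germline markers was 13500 to 14300 CPM in P0 and 8560 to 10500 CPM in F4 sterile gonads, where 10 of the 10 were lower by the test. None of the 10 was at 0 in any group. Of 7 body muscle markers, the factor gene *hlh-1* was at 0 in all 12 samples, but the other 6 had counts. The 7 summed to 63.1 to 99.3 CPM in P0. Libraries carried 3 different library-name prefixes. One was shared by lineage 1 of P0, lineages 1 and 2 of F2 and lineage 2 of both F4 groups, and another by P0 lineages 2 and 3 and the homozygous samples of lineage 3. The last one held the 2 F4 samples of lineage 1 and no P0 sample.

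The members differed widely in level and in place. In P0, CPM per kilobase of exon put *daf-18* first at 285.5 ± 9.14, followed by *akt-1* at 105.5 ± 1.95 and *age-1* at 55.9 ± 3.64. *daf-16* at 43.5 ± 1.76 and *daf-2* at 41.3 ± 1.04 came next, and the samples of these neighbors overlapped. The X-linked members stood last, *pdk-1* at 7.83 ± 2.25, *akt-2* at 1.26 ± 0.44 and *sgk-1* at 0.135 ± 0.129 (SD, n = 3). Apart from *daf-16* and *daf-2*, no neighbors in this order overlapped. The same length scale in F4 sterile gonads left *daf-18* first at 308.8 ± 61.1, but *akt-1* (64.4 ± 8.06), *daf-2* (61.1 ± 2.41) and *daf-16* (54.5 ± 7.62) now overlapped as neighbors, as did *age-1* (41.3 ± 5.54) and *pdk-1* (30.5 ± 8.29). *akt-2* (5.62 ± 1.61) and *sgk-1* (0.95 ± 0.499) remained last.

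In F4 sterile gonads, 4 of the 7 tested members were higher than in P0 (*daf-2*, *pdk-1*, *akt-2* and *daf-16*) and 2 were lower (*age-1* and *akt-1*), while *daf-18* did not pass the test. Of all genes tested, 26.4% were called higher and 16.8% lower in that comparison. F4 fertile gonads had 3 members higher than P0 (*daf-2*, *pdk-1* and *akt-2*), where 13.7% of all genes were called higher, and 1 lower (*akt-1*), where 7.42% were called lower. F2 fertile gonads had 1 member higher (*daf-2*) and 1 lower (*akt-1*) than P0, with 7.6% of all genes called higher and 1.33% lower. The members' median log2 fold changes against P0 were 0.13, 0.26 and 0.33 in F2 fertile, F4 fertile and F4 sterile gonads, and the medians of all tested genes were 0.04, 0.04 and 0.05. These 3 comparisons share the P0 samples. *sgk-1*, the eighth member, did not pass the filter on low counts and was not tested.

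**Figure D1:**
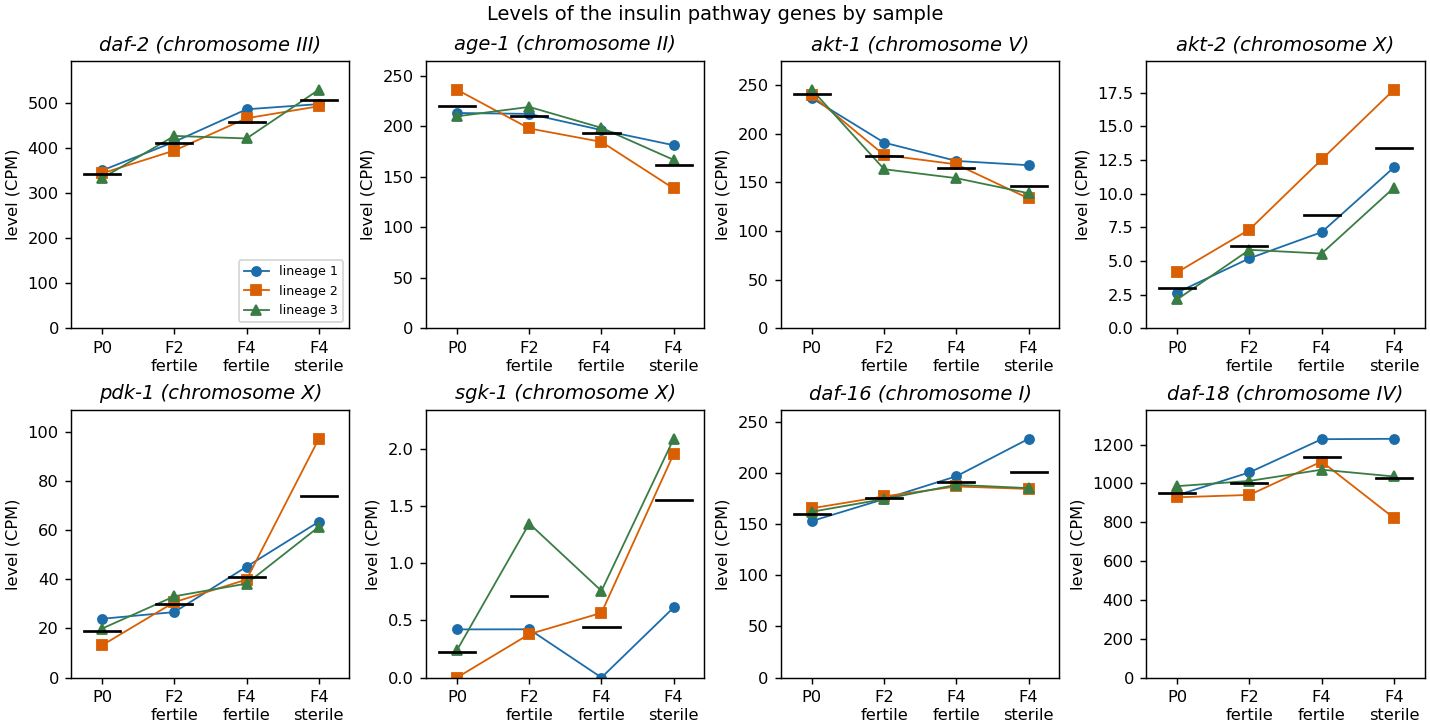
Level of each of the 8 members in CPM (vertical axis, from 0) in the 4 groups (horizontal axis). Points are single samples, colored lines join the samples of 1 lineage, and black bars are group means (n = 3). *akt-1* fell and *pdk-1* rose at every step from P0 to F4 sterile in each of the 3 lineages.

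The receptor gene *daf-2* (WBGene00000898, WS220 chromosome III, 2995755 to 3028792, minus strand) rose on average from group to group. In lineage 3 it did not rise from F2 fertile to F4 fertile gonads. It measured 350.7, 344.4 and 333.6 CPM in P0 lineages 1 to 3, and 414.4, 395.0 and 427.5 CPM in F2 fertile gonads. F4 fertile gonads held 486.6, 466.7 and 421.8 CPM and F4 sterile gonads 498.1, 493.3 and 530.0 CPM. No P0 sample reached the lowest homozygous sample, and the F4 sterile samples all lay above the F4 fertile ones. Over all tested genes, groups that did not overlap with the later group higher were found for 21.1% of genes in the F2 fertile, 25.4% in the F4 fertile and 29.7% in the F4 sterile group against P0, and for 14.2% in F4 sterile against F4 fertile gonads. *daf-2* was higher than in P0 by 0.56 on the log2 scale in F4 sterile gonads (SE 0.076, adjusted p = 9.21e-05 by edgeR) and by 0.42 in F4 fertile gonads (SE 0.076, adjusted p = 0.00222). The F2 fertile difference of 0.27 (SE 0.0759) was at the threshold, with an adjusted p of 0.0456 by edgeR. Its adjusted p was 0.0537 with the lineage as a replicate block, and 0.0534 to 0.328 when any 1 of 11 libraries was left out. Among the fits without 1 library, the one without F4 sterile lineage 1 kept this call, as did the fit of only the 6 samples compared (0.045) and that with the library-name prefix as covariate (0.0427). Only P0 carried the balancer, so the loss of the balancer and the loss of the wild-type *set-2* copy cannot be told apart for any member. *daf-2* itself lies on the chromosome that the balancer covers. Among the 1700 tested genes of chromosome III, 22.1% were called higher in F4 sterile gonads, with a median log2 fold change of 0.02.

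The phosphoinositide 3-kinase gene *age-1* (WBGene00000090, chromosome II, 11519435 to 11526998, minus strand) was called lower than in P0 in F4 sterile gonads but not in the fertile groups. Its levels in lineages 1 to 3 were 213.2, 236.2 and 209.9 CPM in P0, and 212.3, 197.9 and 219.2 CPM in F2 fertile gonads, which overlapped P0. They were 196.3, 184.6 and 198.5 CPM in F4 fertile gonads and 181.3, 138.5 and 166.8 CPM in F4 sterile gonads. Every F4 sterile sample was below every sample of the other groups, and lineage 2 was the lowest. Samples of F4 sterile gonads lay wholly below P0 for 22.1% of all genes and wholly below F4 fertile gonads for 7.67%. The log2 fold change against P0 was -0.44 in F4 sterile gonads (SE 0.0967, adjusted p = 0.00274), -0.19 in F4 fertile gonads (adjusted p = 0.192) and -0.07 in F2 fertile gonads (adjusted p = 0.762, all by edgeR). The F4 fertile difference was called when the F4 sterile sample of lineage 2 was left out (adjusted p = 0.0466 by edgeR). The 2 genes that overlap *age-1* on the opposite strand had 180 counts together over all 12 samples, against 14324 for *age-1*.

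The opposing phosphatase gene *daf-18* (WBGene00000913, chromosome IV, 419987 to 425173, minus strand) was the most abundant member per kilobase in every group and passed the test in none of the comparisons made. P0 measured 939.4, 928.8 and 986.1 CPM, and F2 fertile gonads 1057, 940.9 and 1013 CPM. F4 fertile gonads measured 1228, 1113 and 1071 CPM and F4 sterile gonads 1230, 822.4 and 1036 CPM, so the F4 sterile group held both the highest and the lowest *daf-18* sample of the series. The log2 fold changes against P0 were 0.08, 0.26 and 0.11 in F2 fertile, F4 fertile and F4 sterile gonads (SE 0.123 each, adjusted p = 0.791, 0.156 and 0.489 by edgeR). Without F4 sterile lineage 1 the last of these was -0.04.

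The ratio of *daf-18* to *age-1* counts within each sample does not depend on library scaling. It was 441%, 393% and 470% in P0, 498%, 475% and 462% in F2 fertile, 626%, 603% and 539% in F4 fertile and 678%, 594% and 621% in F4 sterile gonads. Both F4 groups lay wholly above P0 and F2 fertile gonads overlapped it. On the log2 scale the mean ratio exceeded that of P0 by 0.14 (SE 0.0812), 0.44 (SE 0.0987) and 0.54 (SE 0.0938) in F2 fertile, F4 fertile and F4 sterile gonads. Two-sided exact permutation tests gave p = 0.2, 0.1 and 0.1 (n = 3 per group), or 0.2, 0.12 and 0.12 after adjustment over the 6 ratio tests made. With 3 samples against 3, 0.1 is the smallest p such a test can give, and none of these differences could have passed the threshold.

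The kinase gene *pdk-1* (WBGene00003965, chromosome X, 1321348 to 1327980, plus strand), whose product phosphorylates and activates the AKT kinases, rose at each step from P0 to F4 sterile gonads. It went from 23.88, 13.12 and 19.91 CPM in P0 to 26.61, 30.64 and 33.02 CPM in F2 fertile gonads. Levels reached 45.05, 39.83 and 38.18 CPM in F4 fertile gonads and 63.33, 97.03 and 61.24 CPM in F4 sterile gonads. No group overlapped the one before it, which from F2 fertile to F4 fertile gonads held upward for 6.7% of all genes, and lineage 2 gave both the lowest P0 and the highest F4 sterile sample. Against P0 the log2 fold changes were 0.63 (SE 0.217, adjusted p = 0.0953) in F2 fertile, 1.07 (SE 0.216, adjusted p = 0.00413) in F4 fertile and 1.92 (SE 0.215, adjusted p = 2.34e-05) in F4 sterile gonads by edgeR. *pdk-1* was the 1 member called between F4 sterile and F4 fertile gonads, higher by 0.85 on the log2 scale (SE 0.203, adjusted p = 0.0437), where 2.85% of all genes and 14.4% of X-linked ones were called higher. That call was close to the threshold. It was lost when any 1 of 9 libraries was left out, with adjusted p of 0.0555 to 0.254, and kept without P0 lineage 2, F4 sterile lineage 1 or F4 sterile lineage 3. Leaving out F4 sterile lineage 2 gave the smallest difference, 0.56 on the log2 scale.

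The 2 AKT genes went opposite ways. *akt-1* (WBGene00000102, chromosome V, 10248880 to 10252870, plus strand) measured 236.4, 239.4 and 245.1 CPM in P0 and 190.8, 178.1 and 163.5 CPM in F2 fertile gonads. It stood at 172.0, 168.5 and 154.3 CPM in F4 fertile and at 167.6, 133.5 and 138.8 CPM in F4 sterile gonads. All 9 homozygous samples were below all 3 P0 samples, and the homozygous groups overlapped one another. Groups lying wholly below P0 were found for 10.7% of all genes in F2 fertile and 19.1% in F4 fertile gonads. The log2 fold changes against P0 were -0.44 (SE 0.0935, adjusted p = 0.0112), -0.54 (SE 0.0938, adjusted p = 0.00171) and -0.71 (SE 0.094, adjusted p = 7.76e-05 by edgeR) in F2 fertile, F4 fertile and F4 sterile gonads. The F2 fertile call was lost without F2 lineage 2 (adjusted p = 0.0531). In F2 fertile gonads 4.21% of all tested genes had a lower fold change than *akt-1*, and 5.79% did in F4 sterile gonads. The last 74 bases of *akt-1* overlap *rop-1*, the gene of the Ro RNA-binding protein, on the other strand. *rop-1* itself had a log2 fold change of -0.40 in F4 sterile gonads (adjusted p = 0.00436 by edgeR). The strand setting of the counting was not given in the sources used here, and reads of the shared bases could not be told apart.

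*akt-2* (WBGene00000103, chromosome X, 14147631 to 14152013, plus strand) was a low transcript that rose. It measured 2.67, 4.18 and 2.16 CPM in P0, from 42 reads in all, and 5.21, 7.34 and 5.84 CPM in F2 fertile gonads. F4 fertile gonads gave 7.15, 12.55 and 5.56 CPM and F4 sterile gonads 11.96, 17.73 and 10.45 CPM, from 291 reads. Each homozygous group was wholly above P0, the F4 groups overlapped, and lineage 2 was the highest sample in every group. The log2 fold changes against P0 were 0.99 (SE 0.357, adjusted p = 0.11) in F2 fertile, 1.45 (SE 0.356, adjusted p = 0.0122) in F4 fertile and 2.08 (SE 0.357, adjusted p = 0.000507) in F4 sterile gonads by edgeR. With the lineage as a replicate block the F2 fertile difference passed the threshold (adjusted p = 0.0305). The F4 fertile call was lost without F4 fertile lineage 2 (adjusted p = 0.0772), P0 lineage 1 (0.0555) or P0 lineage 3 (0.0612).

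Set against its paralog in the same sample, *akt-2* had 1.13%, 1.74% and 0.881% of the *akt-1* count in P0. The ratio was 2.73%, 4.12% and 3.57% in F2 fertile, 4.16%, 7.45% and 3.61% in F4 fertile and 7.14%, 13.3% and 7.53% in F4 sterile gonads. Geometric means of the ratio were 2.85-fold, 4.01-fold and 7.44-fold those of P0, without overlap. Each had p = 0.1 by the two-sided exact permutation test (n = 3 per group, 0.12 after adjustment), the smallest p possible. *akt-1* remained by far the larger of the pair, and the summed level of both was 243.3 ± 4.13 CPM in P0 and 160.0 ± 16.97 CPM in F4 sterile gonads (SD, n = 3), with no overlap between these groups.

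**Figure D2:**
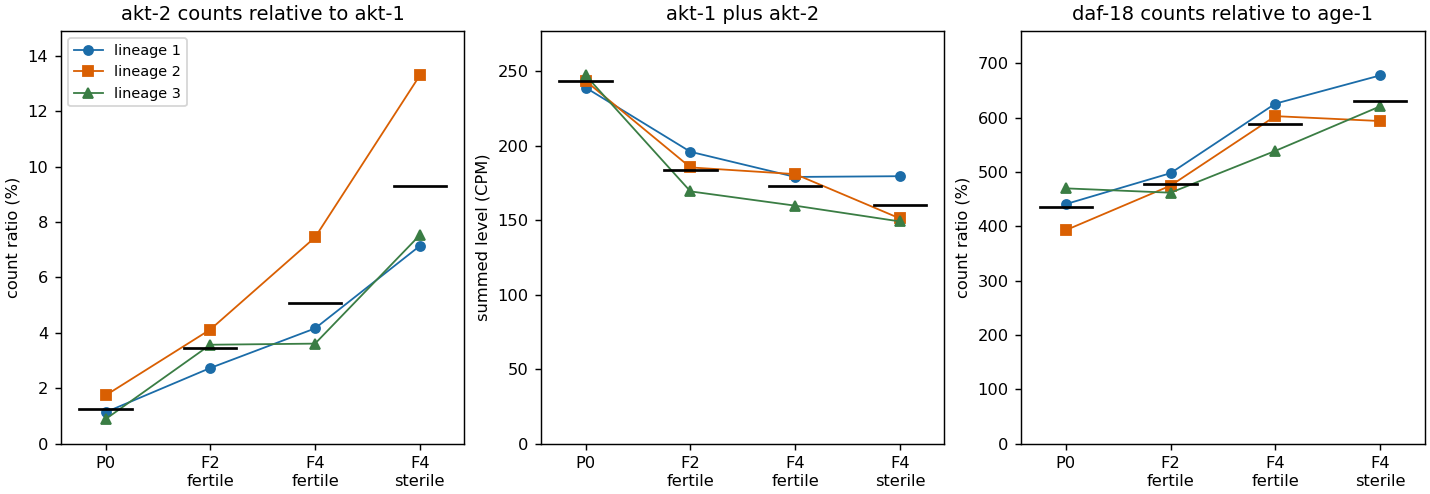
Within-sample ratio of *akt-2* to *akt-1* counts in percent (left), summed *akt-1* and *akt-2* level in CPM (middle) and ratio of *daf-18* to *age-1* counts in percent (right), each axis from 0. Points are samples, lines join lineages and bars are group means (n = 3). The *akt-2* to *akt-1* ratio was 0.881% to 1.74% in P0 and 7.14% to 13.3% in F4 sterile gonads.

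The related kinase gene *sgk-1* (WBGene00004789, chromosome X, 16254766 to 16262056, minus strand) was near the floor. Its counts in lineages 1 to 3 were 3, 0 and 1 in P0 and 3, 3 and 6 in F2 fertile gonads. F4 fertile gonads gave 0, 6 and 3 reads and F4 sterile gonads 4, 18 and 10. The pooled F4 sterile level was 5.71 times that of P0, with a 95% counting interval of 2.03 to 22.2 from 32 against 4 reads, which covers counting error only. Without the filter on low counts edgeR gave a log2 fold change of 1.65 (SE 0.621, adjusted p = 0.0525). Over the 12 alternative settings that let *sgk-1* in, the adjusted p of this comparison ranged from 0.0199 to 0.124. A difference between F2 or F4 fertile gonads and P0 was not detectable at this depth, with counting intervals of 0.684 to 9.61 and 0.456 to 7.27.

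The pathway's transcription factor gene *daf-16* (WBGene00000912, chromosome I, 10750332 to 10776693, plus strand) rose the least of the members called higher. It measured 153.0, 165.5 and 162.1 CPM in P0, 174.5, 177.1 and 174.5 CPM in F2 fertile gonads and 196.8, 186.8 and 188.4 CPM in F4 fertile gonads. F4 sterile gonads gave 233.4, 184.4 and 185.2 CPM. P0 was below all other samples, while in the F4 sterile group lineage 1 stood well above the other 2, which lay just under the F4 fertile range. The log2 fold changes against P0 were 0.13 (adjusted p = 0.443), 0.25 (adjusted p = 0.0648) and 0.33 (SE 0.0905, adjusted p = 0.0104 by edgeR) in F2 fertile, F4 fertile and F4 sterile gonads. The F4 sterile call was lost without F2 lineage 3 (adjusted p = 0.0677), F4 fertile lineage 3 (0.071) or P0 lineage 1 (0.164), 2 (0.0839) or 3 (0.103), and with no filter on low counts (0.151). Without F4 sterile lineage 1, the F4 fertile difference was called (adjusted p = 0.0167). Within the library-name prefixes that hold both groups, the log2 ratio of F4 sterile to P0 was 0.27 and 0.18. The 6 noncoding RNA genes that lie within *daf-16* on the opposite strand had 89 counts together against 13663.

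**Figure D3:**
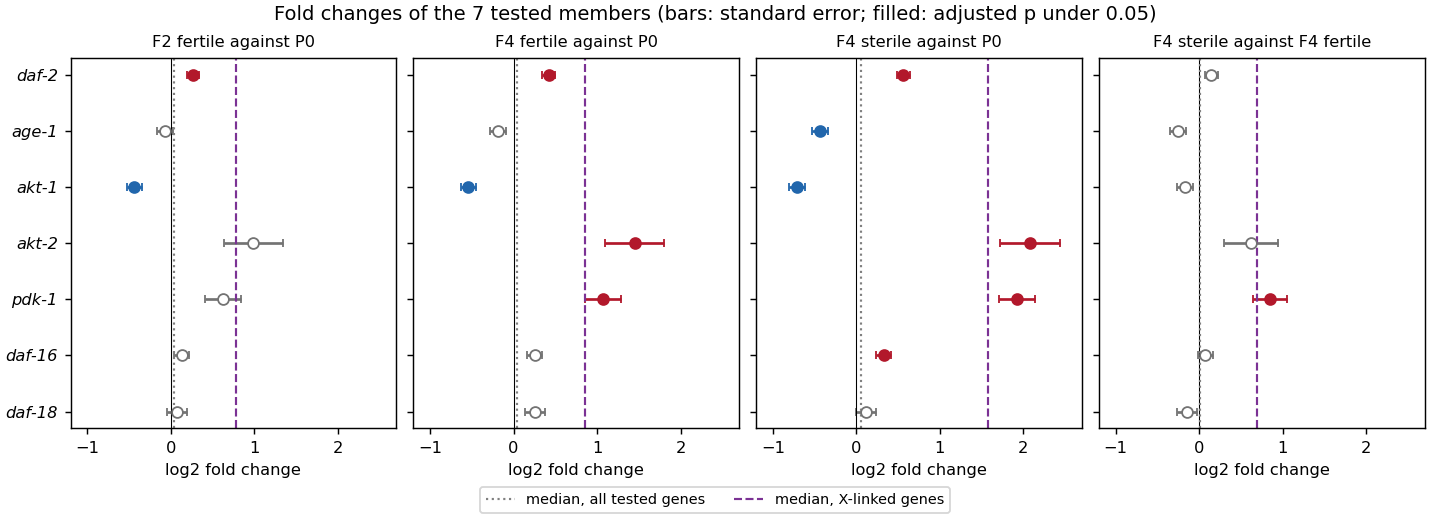
Log2 fold change (horizontal axis) of the 7 tested members in 4 comparisons, with the standard error as bars. Filled points had an adjusted p under 0.05, red for higher and blue for lower, and vertical lines mark 0, the median of all tested genes and that of X-linked genes. In F4 sterile gonads against P0, *akt-2* (2.08) and *pdk-1* (1.92) lay above the X-linked median of 1.58.

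The directions of change against P0 held within each lineage for most members. Each of *daf-2*, *pdk-1*, *akt-2* and *daf-16* was higher in the F4 sterile than in the P0 sample of all 3 lineages, and *age-1* and *akt-1* were lower in all 3. Within the 2 library-name prefixes that hold F4 sterile and P0 samples, 1 F4 sterile library against 1 or 2 of P0, log2 ratios were 0.49 and 0.65 for *daf-2*, -0.62 and -0.42 for *age-1*, 2.02 and 1.89 for *pdk-1*, -0.83 and -0.80 for *akt-1* and 2.73 and 1.72 for *akt-2*. These values had the same sign as the pooled ones. Leaving out any 1 library, or changing the tool, scaling, filter or covariate, kept these 5 calls, with adjusted p of at most 0.0156.

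Between adjacent homozygous groups little could be called. F4 fertile against F2 fertile gonads gave 0 members by edgeR and 0 by DESeq2, where 0.0114% of all genes were called higher and 0% lower by edgeR. At an unadjusted p under 0.05, 1 member (*pdk-1*, 0.0494) and 808 genes were past the limit. In F4 sterile against F4 fertile gonads 0 members were called lower by either tool, where 0.434% of all genes were by edgeR, and *age-1* had an unadjusted p of 0.0208. From F2 fertile to F4 sterile gonads, *daf-2* (0.30, adjusted p = 0.0172), *akt-2* (1.09, adjusted p = 0.0353) and *pdk-1* (1.30, adjusted p = 0.00219) were higher and *age-1* was lower (-0.37 on the log2 scale, adjusted p = 0.0189 by edgeR). Over all genes 11.2% were called higher and 7.79% lower in that comparison. *akt-1* differed by -0.28 with an adjusted p of 0.0543, and of 0.0331 with the lineage as a replicate block. Of these, the *pdk-1* call held in all alternatives (adjusted p at most 0.0162). The *daf-2* call was lost without F2 lineages 2 or 3, F4 sterile lineage 3 or P0 lineages 2 or 3 (0.0502 to 0.0685) and with no filter on low counts (0.095), the *age-1* call without F2 lineages 1 or 3 or F4 sterile lineage 2 (0.0516 to 0.0651) and the *akt-2* call without any 1 of the 3 F2 libraries or F4 sterile lineage 2 (0.0575 to 0.132). With only the 6 samples compared these 3 calls were lost as well (0.108, 0.067 and 0.0605). The *akt-1* difference was called without F4 fertile lineage 3, F4 sterile lineage 1 or P0 lineages 1 or 2 (0.0073 to 0.0474).

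The members that rose most, *pdk-1* and *akt-2*, are X-linked, as is *sgk-1*. The *C. elegans* germline is known to keep most X-linked genes at low levels. Of the 971 tested X-linked genes 30.3% were called higher than P0 in the F2 fertile group, 43.2% in the F4 fertile group and 73.8% in the F4 sterile group, with median log2 fold changes of 0.78, 0.86 and 1.58. Among X-linked genes, 71.8% had a smaller fold change than *akt-2* and 64.7% a smaller one than *pdk-1* in F4 sterile gonads. The median of autosomal genes was -0.000872, and of the 7775 tested 20.5% were called higher and 18.8% lower. The summed level of 8 neuronal markers was 95.4 to 103 CPM in P0 and 143 to 159 CPM in F4 sterile gonads, where 5 of the 5 tested were higher. In F2 fertile gonads the neuronal sum was 88.7 to 122 CPM, which overlapped P0, and 1 of the 5 was called higher. F4 fertile gonads had 104 to 131 CPM, with 2 of the 5 called higher. Most of that sum was *snb-1*, which the gonad also expresses (93.2 ± 2.28 CPM in P0 and 120.0 ± 10.8 CPM in F4 sterile gonads). Summed markers of the gonadal sheath and spermatheca were at 1550 to 1640 CPM in P0 and 965 to 1080 CPM in F4 sterile gonads (8 genes). Most of that sum was *fln-1* (1560 ± 44.4 and 968 ± 70.2 CPM), and of the 4 tested genes 1 was higher and 2 were lower, with a median log2 fold change of 0.20. Those of sperm were at 3.36 to 8.01 and 8.28 to 31.2 CPM (7 genes, *gsp-4* at 0 in P0). Intestine (2760 to 3730 and 746 to 4600 CPM), body muscle (63.1 to 99.3 and 41.9 to 178 CPM) and hypodermis markers (115 to 130 and 120 to 152 CPM) overlapped between both groups. Germline markers were lower in F4 sterile gonads, as *age-1* and *akt-1* were. In F2 fertile gonads, where *akt-1* was already called lower, the germline marker sum was 12600 to 13900 CPM and overlapped P0. There 2 of the 10 germline markers were called lower. The part of these markers in the members' changes was not tested.

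**Figure D4:**
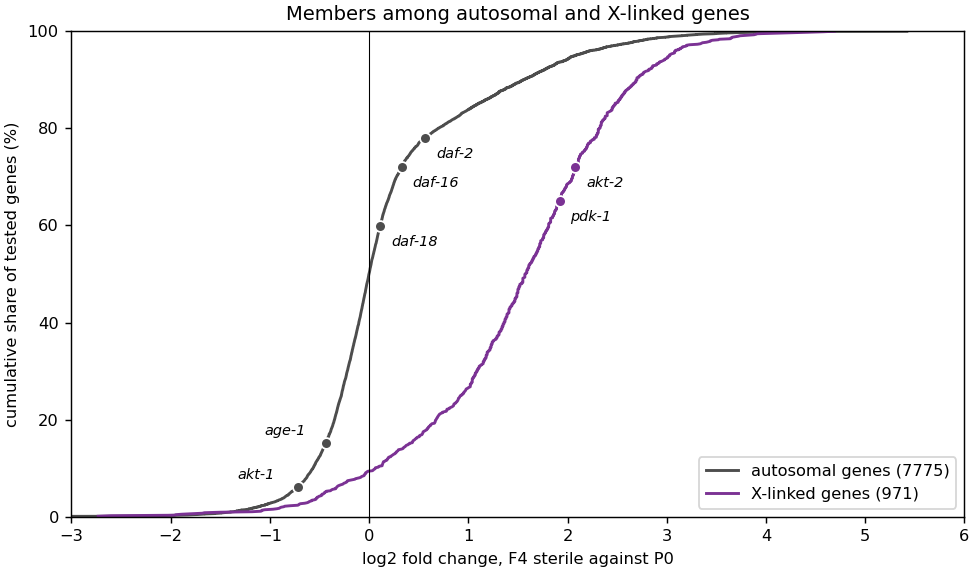
Cumulative share of tested genes (vertical axis, percent) up to a given log2 fold change between F4 sterile and P0 gonads (horizontal axis), for 7775 autosomal and 971 X-linked genes. Points mark the 7 tested members on the curve of their own chromosome class. *akt-2* and *pdk-1* lie past the middle of the X-linked curve, and *akt-1* lies near the low end of the autosomal one.

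Genes around the core were described by lists, whose counts stand beside 26.4% of all genes called higher and 16.8% called lower in F4 sterile gonads against P0. Of 40 insulin-like ligand genes, 35 had at least 1 count, 1 passed the filter and 0 were called in the 3 comparisons with P0 by edgeR or by DESeq2, or at an unadjusted p under 0.05. That gene, *ins-17*, had 2.48 ± 0.533 CPM in P0 and 3.33 ± 1.57 CPM in F4 sterile gonads (SD, n = 3) and an adjusted p of 0.395 by edgeR. *ins-34*, the next most abundant, had 0.568 ± 0.74 and 0.845 ± 0.395 CPM. The 40 genes summed to 5.07 to 7.72 CPM in P0 and 6.48 to 12.7 CPM in F4 sterile gonads.

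Among 13 adaptors and regulators of the kinase cascade, 8 were tested, of which 2 had risen and 1 had fallen in F4 sterile gonads against P0, shares near those of all genes. *ist-1*, the insulin receptor substrate homolog and itself X-linked, went from 1.15 ± 0.414 to 5.91 ± 1.3 CPM (log2 fold change 2.04, SE 0.353, adjusted p = 0.000549 by edgeR). *shc-1*, a Shc-type adaptor, went from 3.56 ± 0.668 to 11.8 ± 3.74 CPM (1.63, SE 0.326, adjusted p = 0.00147). *ddl-1* fell by 0.48 on the log2 scale (adjusted p = 0.0475). Named here after its values were seen, *aap-1*, the regulatory subunit that partners AGE-1, was at 96.9 ± 5.0 CPM in P0 and 107.0 ± 7.89 CPM in F4 sterile gonads (log2 fold change 0.15, SE 0.0896, adjusted p = 0.203 by edgeR).

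The 14 tested of 16 DAF-16 partners and regulators held another pair of paralogs that went opposite ways, again an X-linked and an autosomal gene. Of all tested X-linked genes, 73.8% were called higher in F4 sterile gonads than in P0. The 14-3-3 proteins FTT-2 and PAR-5 bind phosphorylated DAF-16. X-linked *ftt-2* measured 63.6, 44.4 and 63.6 CPM in P0 and 219.0, 368.0 and 289.0 CPM in F4 sterile gonads (log2 fold change 2.34, SE 0.231, adjusted p = 9.1e-06 by edgeR). It was already at 139.0, 246.0 and 208.0 CPM in F2 fertile gonads. Autosomal *par-5* measured 1090, 922 and 1010 CPM in P0 and 723, 708 and 711 CPM in F4 sterile gonads (-0.50, SE 0.0929, adjusted p = 0.000916). For neither gene did the F4 sterile samples overlap those of P0. In the whole list 2 genes were higher, *ftt-2* and X-linked *cst-1* (1.61, adjusted p = 0.00372), an MST-type kinase. The 3 lower ones were *par-5*, the heat shock factor gene *hsf-1* (-0.40, adjusted p = 0.00469) and the arginine methyltransferase gene *prmt-1* (-0.30, adjusted p = 0.0223). The list's median log2 fold change was -0.00928.

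Of 9 TOR kinase genes, all tested, 2 were higher in F4 sterile gonads than in P0 and 0 lower by edgeR, with a median of 0.03. The 2 encode the TORC2 subunits SINH-1 (*sinh-1*, 0.43, SE 0.141, adjusted p = 0.0247) and RICTOR (*rict-1*, 0.30, SE 0.093, adjusted p = 0.0195 by edgeR). The S6 kinase gene *rsks-1*, named after its values were seen, was the 1 gene with a lower level at an unadjusted p under 0.05 (-0.19, adjusted p = 0.0693). DESeq2 gave 0 higher and 1 lower in this list, so these calls depended on the tool.

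Known targets of DAF-16 were mostly low in these gonads, and few were tested, so the counts below give no share that can be set apart from the 26.4% of all genes called higher. Of 21 genes known as activated by DAF-16, 9 were tested, of which 4 had risen and 1 had fallen in F4 sterile gonads against P0. The lysozyme gene *lys-7* went from 5.43 ± 0.209 to 42.3 ± 46.2 CPM (SD, n = 3), so its F4 sterile samples were far apart (log2 fold change 2.91, SE 0.884, adjusted p = 0.0172). The small heat shock genes *hsp-16.49* (2.21, adjusted p = 0.00867) and *hsp-16.41* (2.14, adjusted p = 0.00815) stayed under 5 CPM on average, and since close copies share sequence and reads with more than 1 mapping had been dropped, their values are uncertain. *lea-1*, of the late embryogenesis abundant family, rose from 500.0 ± 84.9 to 707.0 ± 68.3 CPM (0.50, adjusted p = 0.0441), and the glyoxylate cycle gene *icl-1* fell from 78.2 ± 5.64 to 56.1 ± 2.1 CPM (-0.48, adjusted p = 0.00191). Superoxide dismutase gene *sod-3*, the usual reporter of DAF-16 activity and named after its values were seen, had 36 counts over all samples and was not tested. Of 12 genes known as repressed by DAF-16, 7 were tested and 3 were higher, *dod-21* (1.96, adjusted p = 0.00993), *dod-19* (1.66, adjusted p = 0.0306, higher in 2 of 3 lineages and named after its values were seen) and the guanylyl cyclase gene *gcy-18* (1.36, adjusted p = 0.0128 by edgeR). None of these 3 reached 8 CPM on average. The medians of both target lists were 0.80 and 1.32.

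**Figure D5:**
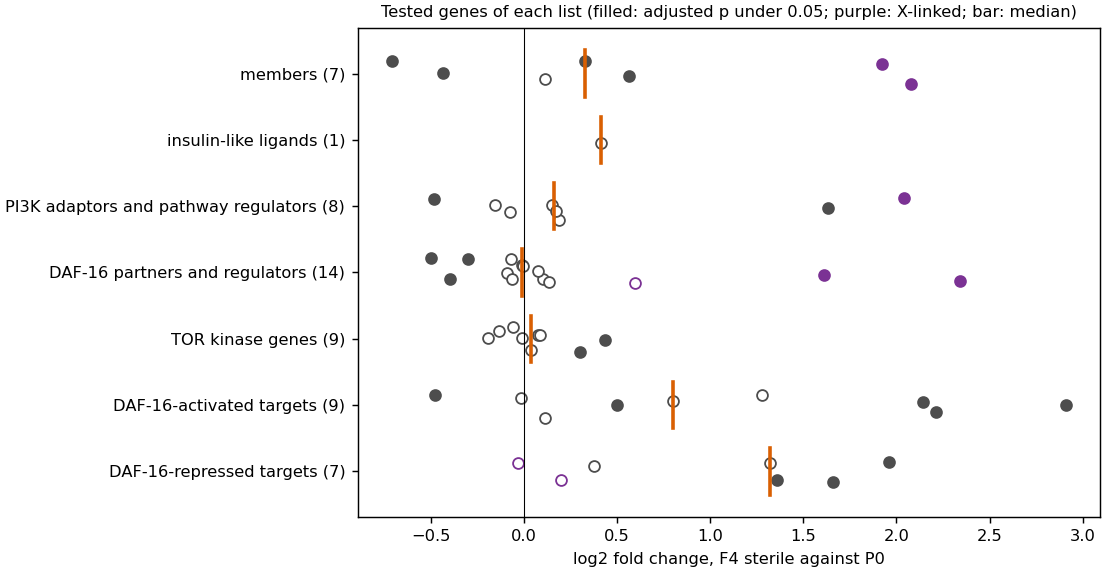
Log2 fold change between F4 sterile and P0 gonads (horizontal axis) of every tested gene of the members and of the 6 lists (rows, number tested in brackets). Filled points had an adjusted p under 0.05, purple points are X-linked and orange bars are list medians. *ftt-2* at 2.34 and *par-5* at -0.50 stand at opposite ends of the DAF-16 partners.

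The genes whose log2 CPM followed each member most closely over the 12 samples were looked up among all tested genes, as a description. They share libraries, depth and group differences with the members. *pdk-1* had the closest match, *cdh-5* (Pearson r = 0.991, Spearman rho = 1.0), a cadherin gene, and then X-linked *nipi-3* (r = 0.982, rho = 0.965). *akt-1* was followed by *H14A12.3* (r = 0.985, rho = 0.944) and by *msh-5* (r = 0.971, rho = 0.944), a meiotic crossover gene, and *age-1* by *plk-3* (r = 0.966, rho = 0.902) and *clu-1* (r = 0.961, rho = 0.93). *daf-2* was most like *tlk-1* (r = 0.972, rho = 0.93) and *F10E9.3* (r = 0.969, rho = 0.93), both on chromosome III as *daf-2* is. Matches of members on other chromosomes also lay on chromosome III, namely *H14A12.3*, *clu-1* and, for *daf-16*, *nth-1*. That chromosome holds 1700 of the 8746 tested genes. *akt-2* was most like the nuclear receptor gene *nhr-62* (r = 0.958, rho = 0.9) and *W06B11.1* (r = 0.955, rho = 0.909). *daf-16* was matched by *T27F7.1* (r = 0.948, rho = 0.902) and *nth-1* (r = 0.947, rho = 0.944), and *daf-18* by *F26H9.2* (r = 0.967, rho = 0.867) and *ash-2* (r = 0.928, rho = 0.888). Among the members themselves *daf-2* and *pdk-1* rose together (r = 0.898, rho = 0.951), *age-1* and *pdk-1* ran opposite (r = -0.91, rho = -0.881), and *daf-18* had r between -0.116 and 0.658 with the others.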

How the data were processed

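RNA was sequenced from ribosome-depleted libraries of dissected gonads, 12 samples in 4 groups of 3. The authors used TopHat2 and the WS220 transcriptome for mapping, discarded reads that mapped more than once or to ribosomal RNA and deposited whole counts per gene from HTSeq, without normalization. The strand setting and tool versions are not given in the sources used here. The authors also deposited normalized signal values, which are the counts divided by DESeq2 size factors. They matched the counts in 100% of values, to within 0.5 counts or, for high counts, about 0.2%, and served only to name the genes and give WS220 coordinates. The log2 fold changes and p-values of the authors' own comparisons, computed with DESeq2, are in the same deposited table and were not used. Reads on no gene (8.23% to 14.4%) and ambiguous reads (1.76% to 2.24%) were left out of library sizes.

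Counts were fitted with edgeR 4.0.16 in R 4.3.3 (TMM scaling, filterByExpr with a minimum count of 10, quasi-likelihood test, prior count of 2) in 1 model of the 12 samples with 1 coefficient per group, as the study fitted no lineage term. The Benjamini-Hochberg adjustment was made over 8746 genes. The SE of an edgeR log2 fold change was derived from the test, as the fold change's size divided by the square root of the F statistic. It is therefore approximate, above all at low counts. Alternatives were RLE size factors, no filter, DESeq2 1.42.0, only the 6 samples compared, the lineage as a replicate block, the library-name prefix as a covariate, and each library left out. Exon lengths came from the WBcel235 annotation. Ratios were tested by exact permutation with scipy 1.17.1. All depth limits and intervals cover counting error only. The P0 samples enter all comparisons with P0.

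The members, lists and markers were chosen with earlier results of these data known. Named genes were all 8 members, up to 4 per direction and list among genes called in F4 sterile against P0 gonads that moved alike in all 3 lineages, or the 2 most abundant of a list with none, and the 2 genes most like each member. The list genes *aap-1*, *rsks-1*, *sod-3* and *dod-19* were named outside this rule, after their values were seen. Samples with the same number were read as 1 lineage, since the study took 1 sample of each group from each lineage. Of 18 same-number pairs, 7 had deviations from the group means correlated above 0.1 (mean 0.0953, from -0.142 to 0.607). The mean of -0.0477 for other pairs follows from centering each group on its mean and is no separate evidence. Many same-number samples also shared a library-name prefix, so lineage and prefix cannot be told apart in these correlations. Where the numbers do not mark lineages, statements on lineages concern numbered samples.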

Additional observations from a re-analysis of the deposited data

How the results depend on the processing

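Besides the reported fit, 6 other settings and 12 fits without 1 library were run on the 7 tested members in 6 comparisons. Of the values under other settings, 232 kept direction and side of the threshold, 8 crossed it to a call, 11 lost one and 1 reversed. Without 1 library the numbers were 449, 8, 41 and 6. *sgk-1* did not pass the filter and has no reported fit to compare. The cause of the changes was not tested.

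The number of members higher in F2 fertile than in P0 gonads was 0 with RLE size factors and with DESeq2. Without a filter it was 1, but *pdk-1* (adjusted p = 0.0482 by edgeR) and not *daf-2* (0.47). Between both F4 groups, 0 members were higher when sterile with RLE size factors and with only the 6 samples compared, and 1 member (*age-1*) was lower with the library-name prefix as covariate. Against F2 fertile gonads, F4 sterile gonads had 1 member higher and 0 lower with only the 6 samples, and 2 lower with RLE size factors, DESeq2, the prefix covariate and the replicate block. In the fit with the replicate block, the log2 fold change of *akt-2* in F2 fertile gonads against P0 was 0.97 and that of *daf-2* was 0.27. With *akt-1* in F4 sterile against F2 fertile gonads (-0.28), these were the calls among members that the block changed.

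When 1 library was left out, members called against P0 ranged from 0 to 1 higher and 0 to 1 lower in F2 fertile gonads, from 2 to 4 higher and 1 to 2 lower in F4 fertile gonads and from 3 to 5 higher in F4 sterile gonads, where 2 were lower each time. The fifth was *sgk-1*, which passed the filter and was called without F2 lineage 3, F4 fertile lineage 1 or F4 sterile lineage 1. They ranged from 0 to 1 higher and 0 to 2 lower in F4 sterile against F4 fertile gonads, and from 1 to 3 higher and 0 to 2 lower in F4 sterile against F2 fertile gonads. Reversals concerned *daf-18* and *daf-16* at small log2 fold changes that were not called. *daf-18* in F2 fertile against P0 gonads was -0.00747 without F2 lineage 3 (highest 0.124) and -4.44e-05 without P0 lineage 2, and in F4 sterile against P0 gonads -0.04 without F4 sterile lineage 1 (highest 0.171). Against F2 fertile gonads it was -0.0868 with the prefix covariate, -0.0137 without F2 lineage 2 and -0.119 without F4 sterile lineage 1 (highest 0.149). *daf-16* in F4 sterile against F4 fertile gonads was -0.0509 without F4 sterile lineage 1 and at most 0.124.

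Depth limited *sgk-1*, with 57 reads in all samples, and *akt-2* in P0, with 42.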
